A study of Mus musculus with 6 samples.

Results

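The members described here are the mature microRNAs (miRNAs) of mouse embryonic stem cells whose names begin with miR-297, miR-466, miR-467 or miR-669. They were chosen by name and by having at least 1 uniquely matched read over all libraries, which left 62 members of 1899 listed entries. Of these, 4 belong to miR-297, 23 to miR-466, 11 to miR-467 and 24 to miR-669. Another 9 entries with these names had no uniquely matched read. The study compared 129/Ola embryonic stem cells in 6 groups with 1 library each: untreated wild-type (WT) cells, called control WT below, untreated Wt1 knockout (KO) cells, called control KO, Wt1 KO cells after 12 h or 24 h of doxycycline (dox) at 1 µg/ml to induce Wt1, and WT and Wt1 KO cells treated with retinoic acid (RA) at 1 µM, a dose the labels write as 1 µm. All cells were kept on gelatin in medium with serum and leukemia inhibitory factor, and no feeder layer is named. Wt1 encodes a zinc finger transcription factor, and RA is a vitamin A derivative that drives stem cells to differentiate. How long RA was given and whether the inducible line is 1 clone are not stated by the labels, no WT library with dox was analysed here, and small RNA libraries do not measure Wt1 itself.

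As background, a miRNA is cut from the stem of an RNA hairpin, and either arm (5p or 3p) can be loaded into an Argonaute protein, which it guides to messenger RNAs that pair with its seed, bases 2 to 8 from the 5′ end. A large group of mouse hairpins lies in an intron of Sfmbt2, which encodes a Polycomb group protein and is expressed from the paternal allele in extraembryonic tissue. The hairpins arose by repeated duplication, are known from rodents, and their miRNAs are abundant in embryonic stem cells and placenta.

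The GENCODE M21 annotation of the GRCm38 build lists 81 hairpins of these names, and 71 of them lie within Sfmbt2 (chr2:10370510-10595253, plus strand). All 71 fall in intron 11 of the 23-exon transcript Sfmbt2-205, between positions 10466663 and 10518279 of chromosome 2, and none overlaps an annotated Sfmbt2 exon. The other 10 lie on other chromosomes. An exact match of each deposited mature sequence to all miRNA hairpins of the annotation, including unnamed gene models outside the 81, placed 52 members only in Sfmbt2, 7 only elsewhere and 3 in both. The members found only in Sfmbt2 held 95.8% of the members' reads, those found only elsewhere 2.13% and those found in both 2.03%. A total of 28 members matched more than 1 hairpin, so their reads cannot be assigned to 1 copy. The miR-669p-5p/miR-669a-5p entry matched 15 hairpins, miR-466e-3p/miR-466a-3p matched 14 and miR-467a-5p matched 12, while miR-467d-5p, miR-467c-5p, miR-467e-5p, miR-466g, miR-669c-5p and miR-669o-5p matched 1 each.

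**Figure D1:**
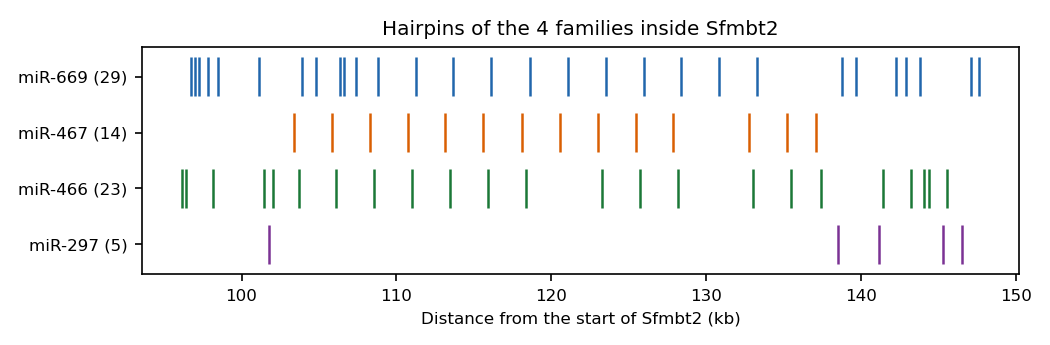
Positions of the 71 annotated hairpins inside Sfmbt2, in kb from the start of the gene, with 1 row per subfamily and 1 tick per hairpin. All ticks lie within 51.6 kb, with 29 hairpins of miR-669, 23 of miR-466, 14 of miR-467 and 5 of miR-297.

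The mature sequences of the miR-467 5p arms are shown first, because they include the member with most reads. The 4 members whose RA response was called higher in Wt1 KO are also among them. As a share of the 26 members judged, these 4 are close to the 15.7% of all entries called so. The sequences are in the DNA letters of the deposited tables, 5′ to 3′, with the seed in capitals.
miR-467d-5p: tAAGTGCGcgcatgtatatgcg
miR-467c-5p: tAAGTGCGtgcatgtatatgtg
miR-467a-5p: tAAGTGCCtgcatgtatatgcg
miR-467b-5p: gTAAGTGCctgcatgtatatg
miR-467e-5p: aTAAGTGTgagcatgtatatgt
miR-295-3p: aAAGTGCTactacttttgagtct
miR-292a-3p: aAAGTGCCgccaggttttgagtgt

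The miR-467d-5p and miR-467c-5p entries share the seed AAGTGCG. They differ by the substitutions T9C and T21C, counted from the 5′ end of miR-467c-5p. The miR-467a-5p sequence differs from miR-467d-5p by C8G and T9C, counted from its own 5′ end, and has the seed AAGTGCC, the seed of miR-292a-3p and miR-290a-3p. Bases 2 to 7 of these 3 members, AAGTGC, also stand at bases 2 to 7 of 9 entries of the miR-290 and miR-302 clusters, the miRNAs best known from pluripotent cells, of which miR-295-3p is shown. The miR-467b-5p entry carries the same stretch 1 base later, since 20 bases of it run through miR-467a-5p.

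The miR-669, miR-466 and miR-297 members with most reads, and those singled out by the comparisons, are shown next. The pairs of 5p and 3p arms show the G- and T-rich against the A- and C-rich strand.
miR-669p-5p/miR-669a-5p: aGTTGTGTgtgcatgttcatgtct
miR-669l-5p: aGTTGTGTgtgcatgtatatgt
miR-669f-5p: aGTTGTGTgtgcatgtgcatgtgt
miR-669o-5p: tAGTTGTGtgtgcatgtttatgt
miR-669c-5p: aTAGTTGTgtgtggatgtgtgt
miR-669e-5p: tGTCTTGTgtgtgcatgttcat
miR-669o-3p/miR-669a-3p: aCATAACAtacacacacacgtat
miR-467d-3p: aTATACATacacacacctacac
miR-466g: aTACAGACacatgcacacaca
miR-466c-5p: tGATGTGTgtgtgcatgtacatat
miR-466i-3p: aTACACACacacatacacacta
miR-466e-3p/miR-466a-3p: tATACATAcacgcacacataaga
miR-466p-3p/miR-466c-3p/miR-466b-3p: aTACATACacgcacacataaga
miR-297a-5p: aTGTATGTgtgcatgtgcatgt
miR-297c-3p/miR-297a-3p/miR-297b-3p: tATACATAcacacatacccata

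The 62 members have 38 distinct seeds. The seed GTTGTGT is shared by miR-669p-5p/miR-669a-5p, miR-669l-5p and miR-669f-5p, which held 16.3% of the members' reads, and CATAACA by miR-669o-3p/miR-669a-3p and miR-669a-3-3p, which held 11.5%. The 3 entries with ATACATA are 3p arms of miR-466 and miR-297. The sequences are close to simple repeats: a median of 61.9% of the steps between neighbouring bases were GT, TG, AC or CA, against 28.6% in the 1136 other entries with a read. In the 27 entries of 5p arms a median of 70.8% of bases were G or T, and in the 26 of 3p arms 22.7%, while 9 members carry no arm in their name.

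The hairpin Mir669o (chr2:10514300-10514395, plus strand) shows how a pair of arms sits in the precursor, with the matched mature sequences in capitals. Its 3p sequence, miR-669o-3p/miR-669a-3p, matches 13 hairpins and miR-669o-5p only 1, so the 3p reads cannot be assigned to this precursor.
Mir669o: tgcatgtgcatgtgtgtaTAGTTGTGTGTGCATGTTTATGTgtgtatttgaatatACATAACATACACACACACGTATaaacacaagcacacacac

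Depth differed 73.0-fold, from 83626 uniquely matched reads in RA-treated KO to 6106104 in RA-treated WT, with 1063945 in control WT, 1768862 in control KO, 1227428 at 12 h and 3629658 at 24 h of dox. With 1 library per group there is no replicate error and no test, and every difference is between libraries. Log2 ratios are of counts scaled by TMM, the trimmed mean of M values, and values in brackets are 95% intervals that cover counting error only. The size rule calls an entry higher or lower where the log2 ratio reaches 1 or -1 with 0 outside the interval. Such ratios were judged for the 351 entries, 26 members among them, with a mean of at least 50 unscaled reads over the 6 libraries. This mean weighs RA-treated WT, the deepest library, most. The stem cell label was checked against the miR-290 cluster, which held 16.04% and 16.8% of reads in control WT and Wt1 KO, 23.4% and 21.1% in the 12 h and 24 h dox libraries, 0.751% in RA-treated WT and 9.40% in RA-treated KO. The RA-responsive miR-10, miR-196 and miR-615 entries, of which 10 of 11 had reads, held at most 0.0461% of reads without RA, 10.9% in RA-treated WT and 2.41% in RA-treated KO.

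The RA-treated KO library stands apart by its depth, and its scaling is the least certain. Its TMM factor was 1.65, against 0.796 to 1.04 in the other 5 libraries, and 1.29 when only the 351 entries past the minimum were used. Scaling to the library total alone, called CPM of the total, raises every ratio of RA-treated KO by 1.05 against control KO and by 0.66 against RA-treated WT. It raises the RA response in Wt1 KO less that in WT by 0.96 and lowers ratios of control KO against control WT by 0.30, while the other comparisons move by 0.015 to 0.12. A change of scaling moves all ratios of a comparison by nearly the same amount. The difference between the median of the 26 members and the median of all 351 entries is therefore almost fixed by arithmetic. That difference ran from -1.30 to -1.29 for RA in Wt1 KO over 5 scalings, which is no check of the scaling.

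Together the 62 members held 66785 reads. They made up 0.900% of the reads in control WT and 0.655% in control KO. They made up 0.573% at 12 h and 0.735% at 24 h of dox, 0.188% in RA-treated WT and 0.532% in RA-treated KO. The lowest share was that of RA-treated WT. Scaled by TMM the sums were 9149, 8221, 6682, 8480, 1802 and 3232 normalised CPM in the same order. The 26 members past the minimum held 96.8% of these reads, and miR-467d-5p alone held 24.1%. The 4 members with most reads (miR-467d-5p, miR-669p-5p/miR-669a-5p, miR-669o-3p/miR-669a-3p and miR-467c-5p) held 59.6%. Of the 36 members under the minimum, 12 had fewer than 10 reads in all libraries together. In RA-treated KO 36 of 62 members had a read, and the median count of the 26 past the minimum was 6.5, with 17 of them under 10 reads.

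**Figure D2:**
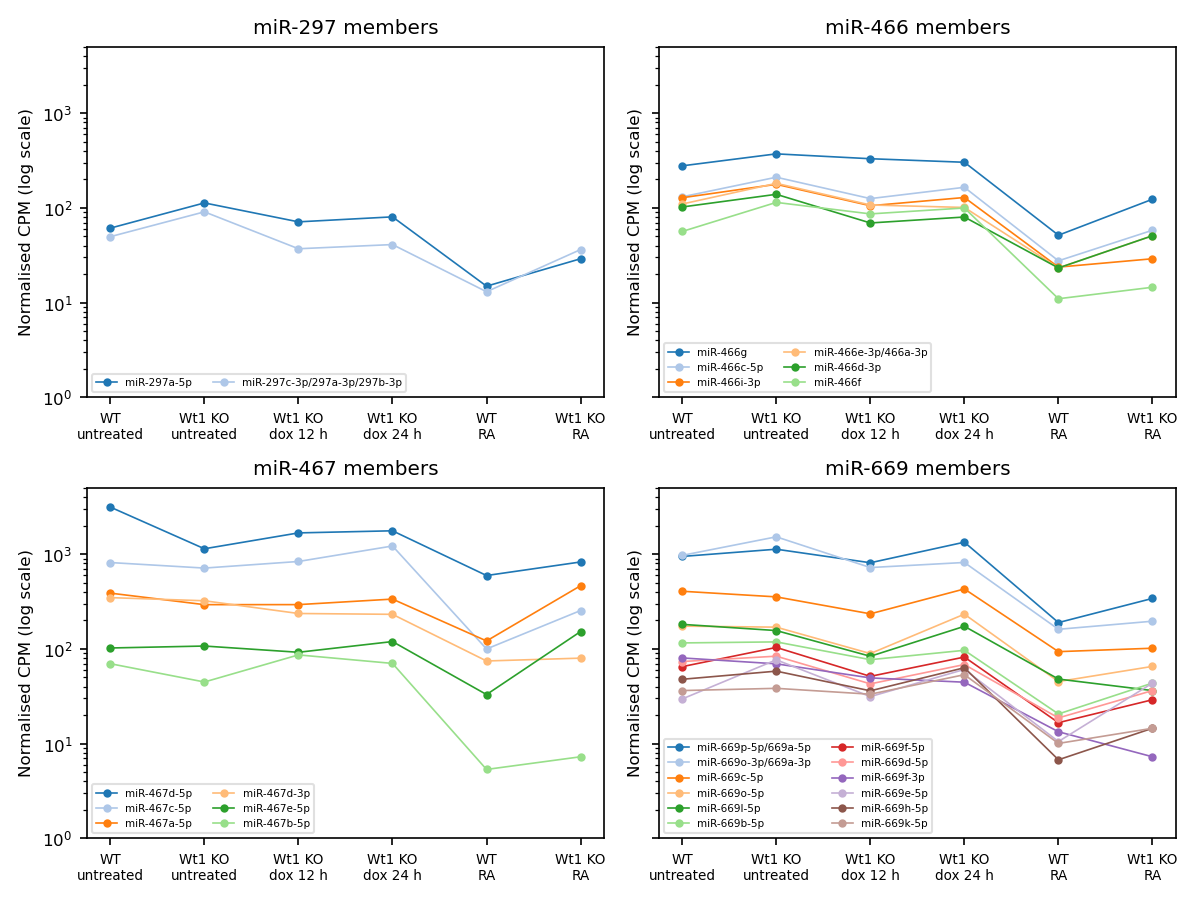
Normalised CPM on a log axis for the 26 members past the minimum, with 1 panel per subfamily, 1 line per member and 1 point per library. Every member was lower in RA-treated WT than in control WT, and miR-467d-5p had the highest level of all members in each library except control KO, where miR-669o-3p/miR-669a-3p was higher.

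The whole family was lower in WT cells with RA than in control WT cells. All 26 members past the minimum were called lower, against a background of 23.9% of the 351 entries called lower and 22.8% called higher. Their median log2 ratio was -2.23, with a range from -3.68 to -1.48, while the median of all 351 entries was 0.15. The 36 members under the minimum, summed, were at -2.23 [-2.48 to -1.99], and the sum of all 62 at -2.34 [-2.38 to -2.30]. The 4 subfamily sums lay close together, at -1.94 [-2.27 to -1.62] for miR-297, -2.32 [-2.44 to -2.20] for miR-466, -2.39 [-2.44 to -2.34] for miR-467 and -2.30 [-2.37 to -2.23] for miR-669. The summed reads of the 7 members found only outside Sfmbt2 were at -2.39 [-2.70 to -2.09]. Most of these reads were of miR-466i-3p, with 134 in control WT and 151 in RA-treated WT, and 3 of the 7 had no read in either library. In the same comparison the miR-290 cluster was at -4.50 [-4.52 to -4.49] and the miR-302 cluster, 7 of 8 entries with reads, at -5.38 [-5.67 to -5.12]. The blood and endothelium entries, 6 of 11 with reads and none for miR-223, miR-144 or miR-451a, were at -3.10 [-3.24 to -2.95]. The muscle and mesoderm entries, 6 of 13 with reads and none for miR-1a or miR-206, were at 1.43 [1.27 to 1.58]. The endoderm entries, 5 of 9 with reads, were at 1.00 [0.79 to 1.22]. The fibroblast and mesenchyme entries were at -0.83 [-0.84 to -0.81] and the neural entries at 0.64 [0.43 to 0.85]. The part of these in the members' values was not tested. The level of RNA per cell and the number of cells of a type cannot be told apart in these bulk libraries.

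By unique matches the lowest ratios with RA in WT were those of miR-467b-5p and miR-467c-5p. At miR-467b-5p 113 multi-match reads in control WT and 102 in RA-treated WT were left out. The count of miR-467b-5p went from 73 reads in control WT to 34 in the deeper RA-treated WT library, or from 69.8 to 5.34 normalised CPM, a log2 ratio of -3.68 [-4.34 to -3.10]. For miR-467c-5p the level went from 816 to 99.8 normalised CPM, at -3.03 [-3.18 to -2.88], and for miR-669h-5p from 47.8 to 6.75, at -2.80 [-3.45 to -2.21]. The smallest falls were those of miR-669e-5p at -1.48 [-2.13 to -0.83], miR-467e-5p at -1.63 [-1.98 to -1.28] and, with a narrower interval, miR-467a-5p at -1.68 [-1.85 to -1.50]. The intervals of miR-467c-5p and miR-467a-5p, 2 arms that differ by 2 substitutions, do not overlap. The most abundant member, miR-467d-5p, was at -2.40 [-2.47 to -2.33].

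In Wt1 KO cells the summed members fell less with RA than in WT, unevenly across arms and subfamilies. By TMM the 3p members, summed, were at -2.44 [-2.81 to -2.09] in Wt1 KO and -2.43 [-2.52 to -2.34] in WT. The 5p members were at -0.96 [-1.11 to -0.80] and -2.32 [-2.36 to -2.27]. By CPM of the total the 3p members were at -1.39 and -2.35, and the 5p members at 0.09 and -2.23. By TMM 20 of the 26 members were called lower and 0 higher, against 31.9% of all entries called lower and 16.8% higher, with a median of -1.76 against -0.46 for all entries. By CPM of the total 3 were called lower and 2 higher, against 9.69% and 35.3% of all entries, with a median of -0.71 against 0.58. The members lay 1.30 below the median of all entries by TMM and 1.29 below it by CPM of the total. These values are alike by arithmetic, while the counts of calls depend on the scaling. The summed members were at -1.35 [-1.49 to -1.21] by TMM and -0.30 [-0.44 to -0.16] by CPM of the total. The latter does not pass the size rule.

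The miR-467 sum lay above those of miR-669 and miR-466 in this comparison by more than their counting error, while the other intervals overlapped. The sum of miR-669 was at -2.07 [-2.34 to -1.82], that of miR-466 at -1.76 [-2.16 to -1.38], that of miR-297 at -1.29 [-2.26 to -0.47] and that of miR-467 at -0.56 [-0.76 to -0.38]. By CPM of the total these were -1.02, -0.71, -0.25 and 0.48, so the direction for miR-467 turns with the scaling. Its place above miR-669 and miR-466 cannot turn, because the scaling moves all the sums alike. The most abundant 3p arm, miR-669o-3p/miR-669a-3p, was among the lowest ratios, at -2.96 [-3.57 to -2.42] from 27 reads with RA, or -1.91 by CPM of the total. The lowest of all, miR-669f-3p at -3.15 [-8.58 to -0.75], rests on 1 read, and miR-466f at -2.92 [-6.03 to -1.10] on 2. The highest ratios were those of miR-467a-5p, miR-467e-5p and miR-467d-5p.

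The level of miR-467a-5p was 388 normalised CPM in control WT and 293.2 in control KO. It was 293.5 in the 12 h and 336 in the 24 h dox library, 121 in RA-treated WT and 465 in RA-treated KO, where it rested on 64 reads. The RA-treated KO library had the highest value and the RA-treated WT library the lowest. Its log2 ratio with RA was 0.66 [0.26 to 1.05] in Wt1 KO by TMM and 1.71 by CPM of the total. For miR-467e-5p the levels were 102, 107, 92.1, 120, 33.0 and 153 normalised CPM in the same order, again with the extremes in the 2 RA libraries, and its ratio in Wt1 KO was 0.51 [-0.23 to 1.17] from 21 reads, or 1.55 by CPM of the total. For miR-467d-5p they were 3142, 1141, 1678, 1766, 595 and 828 normalised CPM, and its ratio in Wt1 KO was -0.46 [-0.75 to -0.19] by TMM and 0.59 by CPM of the total.

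**Figure D3:**
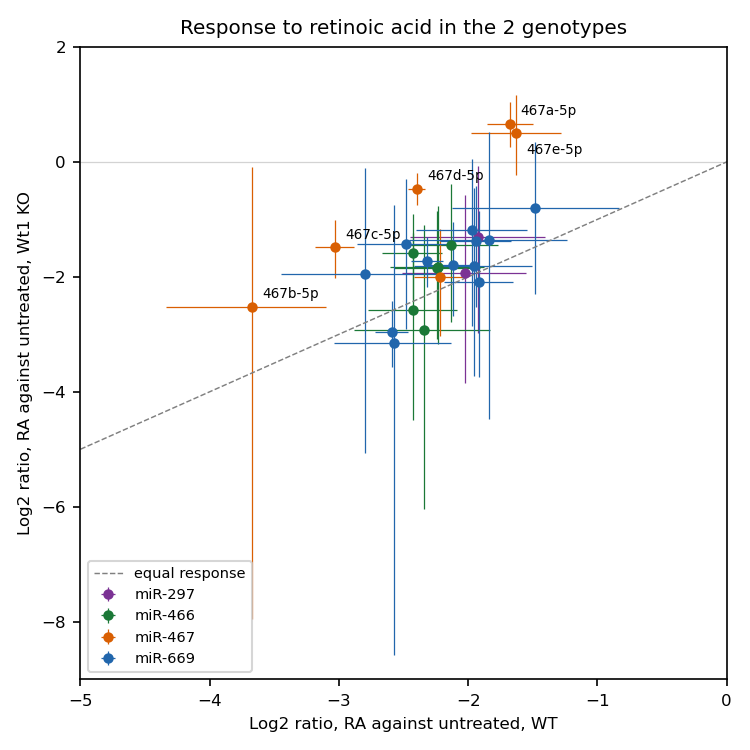
Log2 ratio of RA against untreated in WT (x axis) and in Wt1 KO (y axis) for the 26 members past the minimum, coloured by subfamily, with 95% counting intervals and a dashed line of equal response. The 5 labelled points are the miR-467 5p arms, of which miR-467a-5p lies at -1.68 in WT and 0.66 in Wt1 KO.

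The difference between the responses of the genotypes was computed for each entry as the log2 ratio in Wt1 KO less that in WT. It was called higher in Wt1 KO for 4 members, against 15.7% of all 351 entries, and lower for 0, against 27.1%. The 4 were all miR-467 5p arms. They were miR-467a-5p at 2.34 [1.92 to 2.76], miR-467e-5p at 2.14 [1.40 to 2.87], miR-467d-5p at 1.94 [1.66 to 2.22] and miR-467c-5p at 1.54 [1.04 to 2.05]. Scaled to the library total these were 3.30, 3.09, 2.90 and 2.50. The number called is a share of the 26 close to the background. The other miR-467 5p arm, miR-467b-5p, was at 1.15 [-1.25 to 3.56] from 1 read in RA-treated KO. The 3p entry miR-467d-3p was at 0.22 [-0.65 to 1.08]. The median difference was 0.58 for the 26 members and -0.36 for all entries. By CPM of the total, which raises the difference of every entry by 0.96, 16 members were called. The share of all entries called by that scaling was not computed, so this count has no background.

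With RA, the 26 members were at a median of 0.90 in Wt1 KO against WT, while the median of all 351 entries was -0.49. The calls were 5 higher, against 13.7% of all entries, and 0 lower, against 30.8%. By CPM of the total 13 were called higher, against 23.1% of all entries, and 0 lower, against 12%. The members lay 1.39 above the median of all entries in both scalings, which is alike by arithmetic. The 5 were miR-467e-5p at 2.20 [1.49 to 2.86], miR-669e-5p at 2.03 [0.55 to 3.25] from 6 reads, miR-467a-5p at 1.94 [1.55 to 2.31], miR-467c-5p at 1.35 [0.81 to 1.84] and miR-466g at 1.26 [0.46 to 1.96]. Scaled to the library total they were at 2.86, 2.69, 2.59, 2.00 and 1.92. The lowest ratios were those of miR-669f-3p at -0.86 [-6.20 to 1.64] from 1 read, miR-669l-5p at -0.40 [-2.04 to 0.83] and miR-467d-3p at 0.10 [-0.91 to 0.95].

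Other entries moved with this comparison. The miR-290 cluster was at 2.99 [2.95 to 3.02] in RA-treated KO against RA-treated WT, the RA-responsive entries at -2.83 [-2.90 to -2.77], and the muscle and mesoderm entries, of which 6 of 13 had reads and miR-1a-3p and miR-206-3p had none, at 1.62 [1.47 to 1.77]. The 2 entries reported to overlap ribosomal RNA held 0.270% of reads in RA-treated KO and 0.0250% to 0.0720% in the other 5 libraries. Their part in the members' values was not tested.

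Control KO differed from control WT in the makeup of the family more than in its sum. The summed members were at -0.15 [-0.19 to -0.11], but at 0.24 [0.19 to 0.28] without miR-467d-5p. Scaled to the library total these sums were at -0.46 [-0.50 to -0.42] and -0.067 [-0.113 to -0.022], so the sign without miR-467d-5p turns with the scaling. The miR-467 sum was at -0.89 [-0.95 to -0.83], while miR-297 was at 0.78 [0.48 to 1.09], miR-466 at 0.53 [0.42 to 0.64] and miR-669 at 0.32 [0.26 to 0.38]. By CPM of the total the miR-467 sum was at -1.19 [-1.25 to -1.13] and miR-297 at 0.48 [0.18 to 0.79]. In that scaling miR-466 was at 0.23 [0.12 to 0.34] and miR-669 at 0.02 [-0.05 to 0.08]. These sums leave out multi-matches, which made up 84.3% of the reads at miR-466e-3p/miR-466a-3p. The 26 members had a median of 0.22, against 0.06 for all entries. They gave 2 calls higher, against 11.4% of all entries, and 1 lower, against 15.4%.

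The lower call was miR-467d-5p at -1.46 [-1.55 to -1.38], with 3288 reads in control WT and 1607 in the deeper Wt1 KO library. The higher calls were miR-669e-5p at 1.36 [0.78 to 2.00], from 31 and 108 reads, and miR-466f at 1.01 [0.58 to 1.48], from 59 and 161 reads. The next lowest were miR-467b-5p at -0.64 [-1.15 to -0.13] and then miR-467a-5p, at -0.40 [-0.61 to -0.20], and the next highest was miR-297a-5p at 0.88 [0.46 to 1.33]. All 6 miR-466 members past the minimum had positive ratios, from 0.42 to 1.01, but miR-466e-3p/miR-466a-3p was at -0.063 with multi-matches added. The fibroblast and mesenchyme entries, all 15 with reads, held 6.35% of reads in control WT, 1.28% in control KO and 2.60% to 3.80% in the other libraries. Their ratio in control KO against WT was -2.004 [-2.03 to -1.98]. The miR-302 cluster was at -2.35 [-2.57 to -2.14], the blood and endothelium entries at 1.76 [1.65 to 1.86] and the neural entries, all 4 with reads, at 1.25 [1.03 to 1.48]. The part of these lists in the members' values was not tested.

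Shares within the family do not depend on the scaling between libraries. The miR-467 members made up 53.4% of the family's reads in control WT and 32.1% in control KO. They made up 48.5% at 12 h and 44.3% at 24 h of dox, 51.7% in RA-treated WT and 55.3% in RA-treated KO. Control KO was the lowest, and its 95% Wilson interval of 31.3% to 33.0% lay below those of the other 5 libraries. The share of miR-467d-5p was 34.3% in control WT, 13.9% in control KO, 25.1% and 20.8% in the 12 h and 24 h dox libraries, 33.0% in RA-treated WT and 25.6% in RA-treated KO. That of miR-467a-5p was between 3.57% and 6.73% in 5 libraries and 14.4% [11.4% to 17.9%] in RA-treated KO.

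The 3p arms went the other way. They made up 32.1% of the family's reads in control KO, the highest value, and 15.1% to 21.2% in the other 5 libraries. The miR-669o-3p/miR-669a-3p entry made up 18.6% in control KO and 6.07% to 10.8% elsewhere. The lower share of miR-467d-5p in control KO, 13.9% against 34.3% in control WT, by itself raises the shares of other members. Multi-matches, 84.3% of the reads at miR-466e-3p/miR-466a-3p, are left out of these shares. In control KO against WT the 5p members, summed, were at -0.46 [-0.50 to -0.41] and the 3p members at 0.50 [0.42 to 0.58]. By CPM of the total the 5p members were at -0.76 [-0.81 to -0.71] and the 3p members at 0.19 [0.11 to 0.27]. Among the reads of miR-467d-5p and miR-467d-3p, the 3p share was 22.0% [20.3% to 23.9%] in control KO and 8.80% to 12.4% in the other libraries. The miR-467d-3p sequence matches 12 hairpins and miR-467d-5p only 1, so this share is of the 2 entries and not of the arms of 1 precursor.

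**Figure D4:**
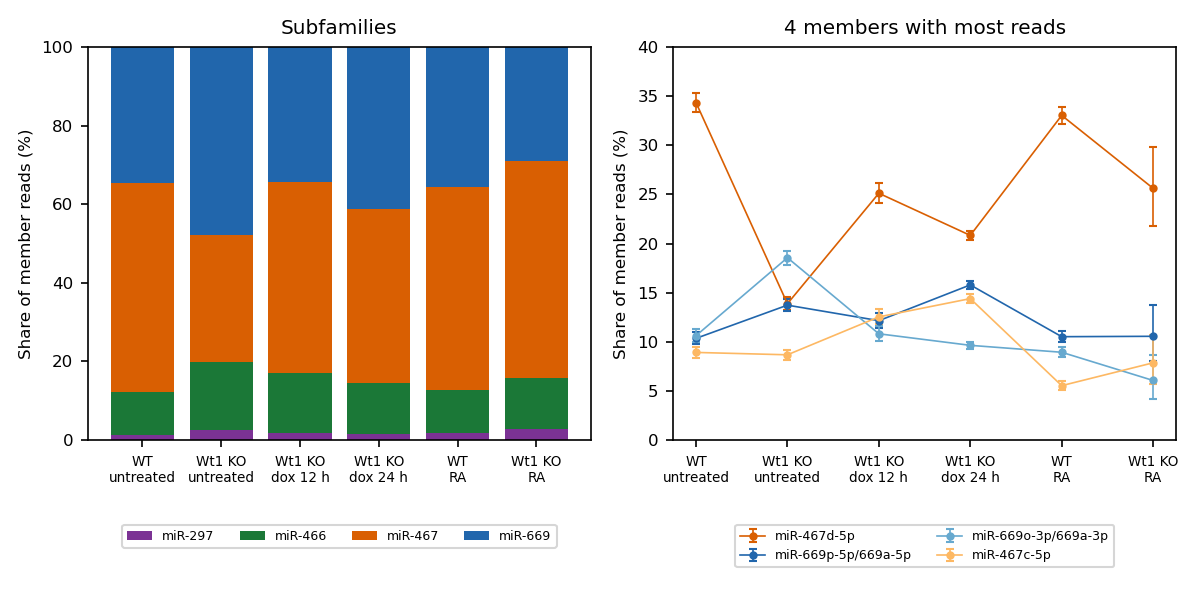
Left, stacked bars of the share of the family's reads in each subfamily, by library. Right, the share of the 4 members with most reads, with 95% Wilson intervals. The miR-467 share was 32.1% in control KO and 44.3% to 55.3% in the other 5 libraries.

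The 12 h dox library of Wt1 KO cells, in which Wt1 was to be induced, was compared with control KO. Of the 26 members 5 were called lower, against 5.7% of all entries, and 0 higher, against 7.69%, with a median of -0.64 against 0.01 for all entries. The miR-669 sum was at -0.78 [-0.85 to -0.71], miR-466 at -0.47 [-0.58 to -0.37] and miR-297 at -0.83 [-1.15 to -0.53], while miR-467 was at 0.30 [0.23 to 0.36]. All 21 members other than the miR-467 5p arms had negative ratios. The 5 called lower were miR-297c-3p/miR-297a-3p/miR-297b-3p at -1.29 [-1.85 to -0.77], miR-669e-5p at -1.28 [-1.90 to -0.72], miR-669o-3p/miR-669a-3p at -1.08 [-1.20 to -0.96], miR-669f-5p at -1.01 [-1.49 to -0.56] and miR-466d-3p at -1.001 [-1.41 to -0.61]. By CPM of the total 2 were called lower, against 3.7% of all entries, and 1 higher, against 9.97%.

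The highest ratios at 12 h of dox were those of miR-467b-5p at 0.94 [0.47 to 1.44], miR-467d-5p at 0.56 [0.46 to 0.66] and miR-467c-5p at 0.23 [0.10 to 0.36]. None of them passed the size rule. With multi-matches added, miR-467b-5p was at 0.30, below miR-467d-5p at 0.64. The fibroblast and mesenchyme entries were at 1.05 [1.03 to 1.08] in the same comparison. The 2 entries that overlap ribosomal RNA were at 1.42 [1.25 to 1.59], and the part of both in it was not tested.

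At 24 h of dox 1 member was called lower, against 2.85% of all entries, and 0 higher, against 6.84%. It was again miR-297c-3p/miR-297a-3p/miR-297b-3p, at -1.14 [-1.51 to -0.78]. The members' median was -0.29, against 0.10 for all entries. The 5p members, summed, were at 0.37 [0.33 to 0.41] and the 3p members at -0.79 [-0.85 to -0.73]. All 7 3p members past the minimum had negative ratios at both times, with miR-669o-3p/miR-669a-3p at -0.90 [-0.98 to -0.82] and miR-466e-3p/miR-466a-3p at -0.84 [-1.09 to -0.60] at 24 h. All 5 miR-467 5p arms had positive ratios, the highest being miR-467c-5p at 0.77 [0.67 to 0.88], miR-467b-5p at 0.65 [0.24 to 1.08] and miR-467d-5p at 0.63 [0.55 to 0.71]. The 12 h and 24 h comparisons share the control KO library.

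The direct comparison of 24 h with 12 h of dox does not use that library. It called 2 members higher at 24 h, against 4.27% of all entries, and 0 lower, against 0.855%, with a median of 0.31 against 0.08. The 2 were miR-669o-5p at 1.38 [1.07 to 1.71] and miR-669l-5p at 1.05 [0.72 to 1.39]. The levels of miR-669o-5p were 174 normalised CPM in control WT, 170 in control KO, 89.3 at 12 h and 233 at 24 h of dox, 45.2 in RA-treated WT and 65.4 in RA-treated KO. Its 12 h value was the lowest of the 4 libraries without RA and its 24 h value the highest. The miR-669 sum was at 0.61 [0.54 to 0.67] and the other sums at 0.10 to 0.21. The ribosomal RNA entries were at -1.11 [-1.24 to -0.99] in this comparison and the miR-302 cluster at 1.31 [1.14 to 1.49], and their part in the members' values was not tested. The lowest ratios were those of miR-467b-5p at -0.30 [-0.66 to 0.07], miR-669f-3p at -0.15 [-0.62 to 0.34] and miR-466g at -0.12 [-0.30 to 0.06].

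**Figure D5:**
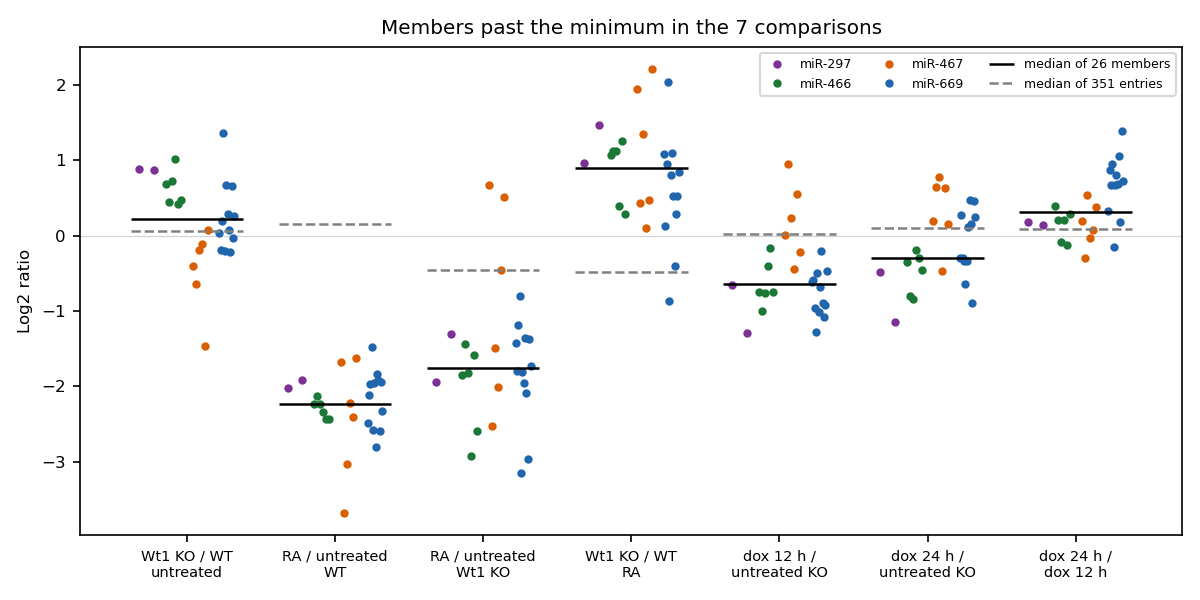
Log2 ratios of the 26 members past the minimum in the 7 comparisons, 1 point per member coloured by subfamily, with the members' median (solid) and the median of all 351 entries (dashed). The members' median lay at -2.23 for RA in WT, where that of all entries lay at 0.15.

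Members with the hexamer AAGTGC were set beside the miR-290 and miR-302 entries that carry it. The 3 members held 0.427% of reads in control WT, 0.171% in control KO, 0.241% and 0.288% in the 12 h and 24 h dox libraries, 0.0852% in RA-treated WT and 0.255% in RA-treated KO. The 9 miR-290 and miR-302 entries held 10.1%, 9.87%, 16.2%, 14.3%, 0.551% and 6.15% in the same order. The members are thus a small part of the reads with this hexamer in all 6 libraries. In RA-treated WT both groups were at their lowest.

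Reads that fit several entries are entered at each of them and were left out of the counts above. The 4 families held 57.3% of all such entries in the tables, 15947 of 27842. The shares were uneven: such reads made up 84.3% of the reads at miR-466e-3p/miR-466a-3p, 57.0% at miR-467b-5p, 28.96% at miR-466i-3p and 17.5% at miR-467a-5p. The sequence of miR-466p-3p/miR-466c-3p/miR-466b-3p is contained in that of miR-466e-3p/miR-466a-3p, and it had 4875 multi-match reads and no unique one. With multi-matches added, the ratio of miR-466e-3p/miR-466a-3p in control KO against WT went from 0.72 to -0.06.

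A start site of Sfmbt2 in RefSeq (GRCm38.p6, chr2:10372186-10372485, plus strand) is shown because the hairpins lie in this gene's transcript, with 1 match to a Wt1-type motif in capitals.
Sfmbt2 promoter: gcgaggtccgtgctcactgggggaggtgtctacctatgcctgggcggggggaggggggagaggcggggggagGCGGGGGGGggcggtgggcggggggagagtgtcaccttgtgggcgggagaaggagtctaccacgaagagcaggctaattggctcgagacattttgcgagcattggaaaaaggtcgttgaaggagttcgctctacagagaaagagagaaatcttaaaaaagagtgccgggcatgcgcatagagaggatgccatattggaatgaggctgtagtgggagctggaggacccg

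The motif GCGNGGGNG was searched on both strands and is also found in 12.3% of the 32851 RefSeq promoter windows of the same length. It had no match in the window of the other Sfmbt2 start (chr2:10370201-10370500). The nuclear receptor motif AGGTCA, found on either strand in 16.3% of windows, had no match in either window. No binding was measured here.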

How the data were processed

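Small RNA was counted in 6 libraries of mouse embryonic stem cells. Per the labels' protocols, total RNA was ligated to adapters and 2 gel bands were excised as 1 pool. The authors deposited whole-number read counts per mature miRNA entry, which per the file headers are unique matches and multi-matches. The aligner, genome build, miRBase version and filters are not stated in the labels or file headers. Unique-match counts were scaled by TMM over all entries (edgeR 4.0.16, R 4.3.3), and log2 ratios used a prior count of 0.5. Intervals for ratios are exact conditional binomial (Clopper-Pearson) and those for shares are Wilson, both at 95%, and cover counting error only, since PCR reads are not independent molecules. The interval of the difference of RA responses comes from the delta method on its 4 counts. The limit set by 3 reads was 0.471 to 2.87 normalised CPM in 5 libraries and 21.8 in RA-treated KO. The ratios and intervals were run on simulated counts drawn with counting error only and with the TMM scaling taken as true. That run cannot speak to spread between replicates or to the scaling. Positions come from an exact match of the deposited mature sequences to GENCODE M21 hairpins. Mature sequences were taken from the deposited tables, because the RefSeq table has few of these miRNAs. The promoter sequences are from RefSeq. Other hairpin sequences are not reported here.

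Named members are the 4 with most reads per subfamily, the 3 highest and 3 lowest ratios per comparison, calls against the main direction and calls opposed between genotypes. Further names were chosen after seeing values. The members and lists were chosen with earlier results of these data known. Alternatives were CPM of the total, DESeq2 1.42.0 size factors, CPM leaving out both stem cell clusters (miR-290, miR-302), other minimums (10, none, 20 CPM), a 1.5-fold size rule, a prior of 2, multi-matches added, and, chosen after seeing the data, TMM over entries past the minimum and sums without miR-467d-5p.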

Additional observations from a re-analysis of the deposited data

Results flagged for a closer look

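By TMM 1 member had RA ratios of opposite sign in the 2 genotypes with both counting intervals off 0. It was miR-467a-5p, at -1.68 in WT and 0.66 in Wt1 KO, and the difference was not tested across replicates. By CPM of the total miR-467d-5p (-2.31 in WT and 0.59 in Wt1 KO), miR-467e-5p (-1.54 and 1.55) and miR-669e-5p (-1.40 and 0.23) also had opposite signs. Between the 2 dox times, 3 members had opposite signs against the shared control KO library by TMM with both counting intervals off 0. These were miR-669c-5p at -0.59 at 12 h and 0.28 at 24 h, miR-669o-5p at -0.92 and 0.46, and miR-669p-5p/miR-669a-5p at -0.48 (-0.475) and 0.25, and these differences were not tested either.

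Reads also stood at entries left out of the counts because no read matched them uniquely. The miR-466p-3p/miR-466c-3p/miR-466b-3p entry had 4875 multi-match reads, miR-466p-5p had 281 and miR-466f-5p had 93. These counts, summed over the 6 libraries, were judged against the limit of 3 reads that a count of 0 allows.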

How the results depend on the processing

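No paired analysis was possible because each group has 1 library, and for the same reason no library could be left out. The 26 members lower with RA in WT stayed 26 under each scaling and prior count, against 23.4% to 26.5% of all entries. With no minimum they became 40 of all 62, against 13% of all entries with a read. The cause of the changes below was not tested.

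Scaling by CPM of the total or by CPM leaving out both stem cell clusters (miR-290, miR-302) changed several counts, given in that order. For RA in KO 3 and 4 members were lower, against 9.69% and 12% of all entries. In both 2 were higher, against 35.3% and 32.2%, and the summed members were at -0.30 and -0.42. The difference of RA responses gave 16 higher in both, with no share of all entries computed. For RA-treated KO against RA-treated WT they gave 13 and 15 higher, against 23.1% and 26.2% of all entries (sums 1.501 and 1.63). For control KO against WT each gave 1 higher, against 7.12% and 7.41%. At 12 h of dox each gave 2 lower, against 3.7% and 2.56%, and 1 higher, against 9.97% and 12.5%. At 24 h, without the 2 clusters, 0 were lower, against 1.71%. By the median of ratios 8 were higher in RA-treated KO against RA-treated WT, against 16.2% of all entries (sum 1.05). By TMM over the entries past the minimum, RA in KO gave 1 higher, against 23.4% of all entries, and a sum of -0.99. RA-treated KO against RA-treated WT gave 11 higher, against 17.9%, and a sum of 1.26. At 12 h of dox 8 were lower, against 8.83%, and at 24 h 2 were lower, against 3.7%. The 24 h sum of 0.04 became -0.012 by the median of ratios, -0.066 by that TMM and -0.077 without miR-467d-5p, and the control KO sum of -0.15 became 0.24 without miR-467d-5p by TMM, but -0.067 without it by CPM of the total.

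A minimum of 10 or none gave 8 higher in the difference of RA responses, with no share of all entries computed. At 12 h of dox 1 was higher, against 8.89% or 4.26% of the entries kept. At 24 h 1 was higher, against 7.91% or 4.01%, and 3 or 4 lower, against 4.74% or 2.59%. Between the dox times 4 were higher, against 4.15% or 1.92%, and 2 lower, against 2.77% or 1.92%. In control KO against WT 4 or 5 were higher, against 11.5% or 5.09%, and 2 lower, against 14.8% or 6.93%. A minimum of 20 CPM gave 1 higher at 12 h, against 8.79% of the entries kept, and 1 higher at 24 h, against 7.14%. It gave 1 lower between them, against 1.65%, and 2 lower in control KO, against 15.1%. The 1.5-fold rule gave 1 higher for RA in KO, against 21.9% of all entries. At 12 h it gave 15 lower, against 15.7%, and 1 higher, against 17.1%. At 24 h it gave 5 lower, against 8.83%, and 3 higher, against 16.8%. Between the dox times it gave 9 higher, against 10.8%. In control KO it gave 8 higher, against 21.9%, and 2 lower, against 23.9%. It also called the sum of 0.84 for RA-treated KO against RA-treated WT. A prior of 2 gave 3 lower at 12 h, against 4.84% of all entries, and 1 higher in control KO, against 11.1%. Multi-matches gave 2 lower at 12 h, against 4.27% of all entries. They gave 1 higher between the dox times, against 4.27%, and 1 higher in control KO, against 9.4%.

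Single values turned sign in 35 cases, given first by CPM of the total and then without the 2 clusters. For control KO against WT these were miR-297b-5p -0.21 and -0.19, miR-467e-5p -0.24 and -0.22, miR-669h-5p -0.020 and -0.0069 and miR-669p-5p/miR-669a-5p -0.051 and -0.039. For RA in KO they were miR-467d-5p 0.59 and 0.46, miR-669e-5p 0.23 and 0.11, and the miR-467 sum 0.48 and 0.36. For RA-treated KO against RA-treated WT, miR-669l-5p was 0.25 and 0.39, and 0.018 by TMM past the minimum. Without the 2 clusters miR-466f was 0.0032 and the miR-669 sum 0.025 at 24 h, and miR-466g 0.056 and miR-467e-5p 0.0082 at 12 h. By the median of ratios and TMM past the minimum, miR-297c-5p was -0.042 and -0.093 at 24 h, miR-467a-5p -0.086 and -0.10 at 12 h and miR-669o-5p 0.012 and 0.020 in control KO, and miR-467d-3p between the dox times was 0.0022 by the median of ratios. With multi-matches, control KO against WT gave miR-466e-3p/miR-466a-3p -0.063 and miR-467e-5p -0.016, 12 h gave miR-467a-5p -0.0095, the dox times gave miR-467b-5p 0.14 and the miR-466 sum -0.043, and RA-treated KO against RA-treated WT gave miR-467d-3p -0.18 and miR-669c-5p -0.074.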

Other observations

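The precursor miR-466d gave an uneven pair of arms whose 3p entry matches 1 hairpin and whose 5p entry matches 2. The 3p arm made up 78.1% of their reads in control WT, 95.6% [91.9% to 97.7%] in control KO, 60.3% and 78.8% in the 12 h and 24 h dox libraries, 76.7% in RA-treated WT and 77.8% in RA-treated KO, the last from 9 reads. The control KO value rests on 9 reads of miR-466d-5p against 30 in control WT, and 67.8% of the reads at miR-466d-5p were multi-matches, which these shares leave out.

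Another cluster of repeated hairpins, the X-linked testis cluster, was at -2.54 [-2.77 to -2.31] with RA in WT, beside -2.34 for the members' sum, but at 1.23 [1.02 to 1.43] with RA in Wt1 KO, beside -1.35, and at 1.40 [1.22 to 1.59] in control KO against WT, beside -0.15. Its share of reads was 0.0282% in control WT, 0.0604% in control KO and 0.00514% in RA-treated WT, and 0.293% in RA-treated KO, the highest of the 6 libraries. In that library the members were at 0.532% of reads, below the 0.655% of control KO.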
